A study of Homo sapiens with 8 samples.

Results

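Matrix glycoproteins, proteoglycans and collagen crosslinkers were followed as a set of 52 genes, chosen by symbol from the 27945 gene rows of a fastGRO-seq count table. They code for the non-collagen proteins that fibroblasts secrete into the extracellular matrix and for the enzymes that process and crosslink collagen and elastin. FastGRO-seq is a nuclear run-on assay: isolated nuclei extend transcripts already begun with a thiol-tagged uridine, and the tagged RNA is captured and sequenced, so a count reflects transcription under way and not stored mRNA. Counts ran over the whole gene, introns included, on the hg19 build.

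The cells were IMR90, a line of human lung fibroblasts grown at low oxygen. The senescent groups carried an inducible fusion of the estrogen receptor with the oncogene H-RASG12V (ER:RAS), switched on to drive the cells into senescence. There were 4 groups of 2 libraries: control cells, labelled wild type and named with no hairpin; senescent cells with a control hairpin (shControl); senescent cells with a hairpin against METTL3 (shMETTL3); and senescent cells with a hairpin against METTL14 (shMETTL14). METTL3 and METTL14 are the paired subunits of the enzyme that writes N6-methyladenosine on RNA. One hairpin is named for each target, so a hairpin's own effect and loss of its target cannot be told apart, and in the first comparison senescence cannot be told apart from carrying a hairpin. The labels do not say whether control cells carried the fusion uninduced, so in comparisons with control its presence may differ as well. The counts are not scaled to a spike-in here, so each difference is set against the rest of its own library.

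Total counts ran from 14897360 to 20306299 per library, of which 86.2 to 92.5% fell on 21 ribosomal RNA rows, leaving 1513930 to 2048475 counts on other genes. The 52 genes took 1.06 to 1.81% of the latter, and FN1 alone took 33.4 to 49.1% of the counts on the set. METTL3 had 77 and 47 counts in shControl against 16 and 19 in shMETTL3 (log2 fold change -2.04 ± 0.31 SE, edgeR adjusted p = 1.79e-05). METTL14 had 24 and 28 counts in shControl against 18 and 14 in shMETTL14, a difference that did not pass the test (-0.86 ± 0.34, edgeR adjusted p = 0.0763). METTL14 was lower in shMETTL14 than in shMETTL3 (-1.41 ± 0.32, edgeR adjusted p = 0.00101) and than in control (-1.61 ± 0.31, edgeR adjusted p = 0.000119), but it was already lower in shControl than in control (-0.76 ± 0.28, edgeR adjusted p = 0.0472) and its value in shMETTL3 over shControl was 0.56 ± 0.29 (edgeR adjusted p = 0.176), so neither contrast is a check of the knockdown alone. The shMETTL3 libraries lay furthest apart, at a chi-square of 5.75 per gene against 1.57 to 2.80 for the other pairs. Fibroblast markers summed to 24522 and 25778 counts in control, 8862 to 10975 in shControl, 10925 to 12332 in shMETTL3 and 7461 to 7976 in shMETTL14, mostly through COL1A1, COL1A2 and COL3A1. Of the other markers VIM ran from 3356 to 4417 counts over all libraries, while PDGFRB had 334 and 267 in control and 38 and 54 in shMETTL14, THY1 376 and 346 against 119 and 97, and PDGFRA 1076 and 1085 against 246 and 396. Epithelial markers summed to 0 to 9 counts per library, with 3 of 7 at 0 throughout. The 5 endothelial markers summed to 115 to 133 counts in control, 43 to 52 in shControl, 55 to 75 in shMETTL3 and 16 to 29 in shMETTL14, mostly from TEK (105 and 123 in control, 13 and 26 in shMETTL14), while PECAM1, CDH5 and KDR had at most 2 counts in any library. Leukocyte markers summed to 17 to 20 counts in control, 48 to 67 in shControl, 27 to 46 in shMETTL3 and 45 to 51 in shMETTL14, mostly from CD68 (17 and 16 in control, 60 and 45 in shControl), while CD3E was at 0 in all libraries and PTPRC reached at most 4. Smooth muscle markers summed to 140 to 163 counts in control, 179 to 202 in shControl, 109 to 141 in shMETTL3 and 245 to 267 in shMETTL14, chiefly through SMTN, whereas CNN1 had 28 and 33 in control, 6 and 10 in shControl and 4 and 4 in shMETTL14, MYH11 had 15 and 27, 8 and 15, and 4 and 10, and DES was at 0 in all but 1 library. The part of these markers in the results was not tested. In bulk libraries, fewer cells of a type and less RNA per cell cannot be told apart.

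As background, the interstitial matrix of lung combines collagen fibrils, made stable by hydroxylation and lysyl oxidase crosslinks, with elastic fibres built on fibrillin microfibrils, and the small leucine-rich proteoglycans coat the fibrils. Microfibrils also hold latent TGF-beta through the LTBP proteins, so the same genes set both the mechanics of the tissue and the supply of a growth factor. Adhesive glycoproteins such as fibronectin link this network to the cells, and nidogens, perlecan and agrin belong to the basement membrane.

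Across the set, calls were mainly lower in senescence and with shMETTL14, and went both ways with shMETTL3. Senescent shControl cells transcribed 8 members more and 22 less than control cells. The 8 were LTBP2, TNC, BGN, TGM2, P4HA1, P4HA2, PLOD1 and PLOD2, which include the 4 prolyl and lysyl hydroxylase genes of the set that were tested. Knockdown of METTL3 in senescent cells split the set, with 9 higher and 11 lower, whereas knockdown of METTL14 left 0 higher and 21 lower. Per kilobase of gene, FN1 and THBS1 had the highest levels in control and shControl cells. Among the steepest falls were those of DCN, FBLN1, EFEMP1 and LTBP4, which were lower in senescence and lower again with each knockdown.

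A gene was called when its edgeR quasi-likelihood p, adjusted by Benjamini-Hochberg over all 12844 genes that passed a filter on low counts, was below 0.05. Of the 52 members 45 passed that filter, and 4 of those (FBLN2, MFAP2, MFAP4 and MATN2) passed it in 1 group only, so that a difference was built into their selection. Without those 4, the members called higher and lower were 8 and 20 in senescence, 9 and 10 with shMETTL3, 0 and 21 with shMETTL14, 3 and 20 between the knockdowns, 11 and 16 for shMETTL3 against control and 5 and 23 for shMETTL14 against control. Not tested were ELN (elastin), MFAP5, COMP, MGP and PRELP, with at most 3 counts in any library, FMOD, with at most 7, and P4HA3, with at most 5. Against the share of all tested genes called higher in senescence, 13.3%, and called lower, also 13.3%, the members called made up 17.8% and 48.9% of the 45 tested. In shMETTL3 against shControl 20% and 24.4% of the 45 were called higher and lower, beside 12.2% and 11.2% of all genes. In shMETTL14 against shControl 0% and 46.7% were called, beside 9.15% and 12% of all genes; no member was higher even at an unadjusted p below 0.05, where 25 were lower, and DESeq2 also called 0 higher. Compared directly, shMETTL14 exceeded shMETTL3 for 3 members and lay below it for 20, beside 16.5% and 18.7% of all genes. Relative to control cells, shMETTL3 cells had 12 members higher and 19 lower (20.1% and 20.1% of all genes) and shMETTL14 cells 5 higher and 26 lower (19.7% and 20.5% of all genes). The median log2 fold change over the 45 was -0.58 in senescence, -0.18 with shMETTL3 and -0.55 with shMETTL14, beside -0.03, -0.03 and 0.00 over all genes.

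These counts hold for changes relative to the typical gene. Scaling by total count instead sets each library mostly against its ribosomal RNA. The ribosomal share of the total was 89.9 and 89.9% in control and 92.5 and 92.1% in shControl. It was 88.4 and 86.2% in shMETTL3 and 90.4 and 91.3% in shMETTL14. The part of that share in the shifts given next was not tested. When libraries were scaled by their total count alone, the median of all genes itself moved by -0.53 in senescence, 0.58 with shMETTL3 and 0.35 with shMETTL14, and the members called higher and lower became 6 and 33, 23 and 6, and 3 and 14. With that scaling the shares of all genes called higher and lower were 5.85% and 39% in senescence, 41.1% and 2.75% with shMETTL3, and 24.6% and 5.53% with shMETTL14. The calls lost were BGN and P4HA1 in senescence, BGN, LOXL3, LTBP2, MATN2 and TNC with shMETTL3, and FBN1, FN1, LOX, LOXL2, LOXL3, P4HA1 and PLOD1 with shMETTL14. The comparisons with shMETTL3 and shMETTL14 share the same shControl libraries, so their values are set side by side and only the direct comparison tests whether the knockdowns differ. The shControl libraries also enter the senescence comparison, with the opposite sign. A change there and the reverse change with a knockdown are therefore not independent.

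**Figure D1:**
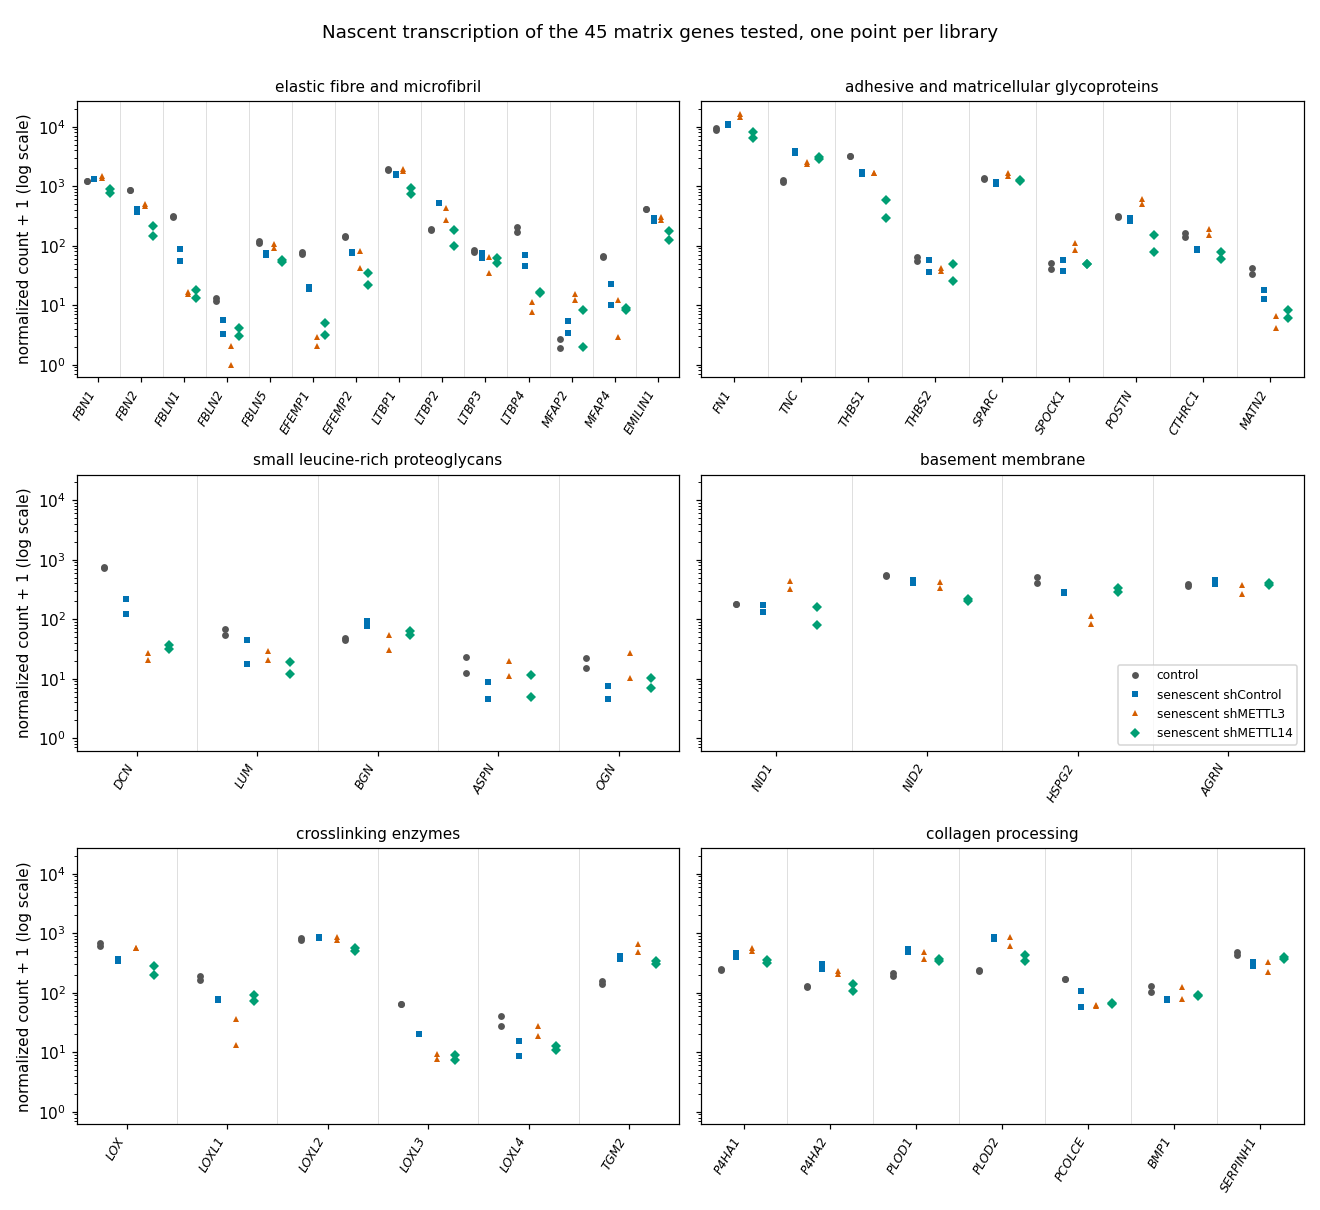
Normalized count plus 1 (log axis) of the 45 members tested, in 6 panels by role, with 1 point per library and 4 groups of 2 libraries marked by colour and shape. FN1 lies highest, between 6513 and 16600, and in DCN, FBLN1, EFEMP1 and LTBP4 the points step down from control to shControl and again to both knockdowns.

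Within the elastic fibre and microfibril genes, 8 of the 14 tested fell in senescence and 1 rose. The 14 include FBLN2, MFAP2 and MFAP4, which passed the filter in 1 group only, and MFAP4 is among the 8. The fall was steepest for FBLN1, which codes for fibulin-1, a glycoprotein of elastic fibres and basement membranes (chr22:45898719-45997014, plus strand). Its normalized counts, meaning counts divided by the library's relative size after TMM scaling, were 318 and 306 in control, 54.4 and 85.7 in shControl, 15.4 and 14.2 in shMETTL3 and 11.99 and 16.85 in shMETTL14. No group overlapped another except the knockdowns with each other. The log2 fold change was -2.15 ± 0.19 (SE) for shControl against control, with an edgeR adjusted p of 1.03e-09. Below shControl it was -2.24 ± 0.29 with shMETTL3 and -2.28 ± 0.30 with shMETTL14, at edgeR adjusted p of 2.31e-06 and 2.16e-06.

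LTBP4, which binds latent TGF-beta and supports elastic fibre assembly, went the same way, from 205 and 166 in control to 44.9 and 69.0 in shControl, 10.3 and 6.65 in shMETTL3 and 14.99 and 15.8 in shMETTL14. LTBP4 changed by -1.70 ± 0.21 (log2) in senescence (edgeR adjusted p = 5.45e-07), -2.75 ± 0.35 with shMETTL3 (1.69e-06) and -1.89 ± 0.31 with shMETTL14 (6.61e-05). EFEMP1, coding for fibulin-3, fell from 87 and 83 raw counts in control to 16 and 16 in shControl, and then to 1 and 2 in shMETTL3 and 4 and 2 in shMETTL14. The shControl to shMETTL3 ratio per normalized library was 12.4, with an exact 95% counting interval of 3.88 to 63.3, and the edgeR adjusted p was 0.000152. With shMETTL14, EFEMP1 was lower by a log2 value of -2.53 ± 0.55 (edgeR adjusted p = 0.0013).

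LTBP2 was the microfibril gene that rose in senescence. It codes for a latent TGF-beta binding protein relative that does not bind latent TGF-beta and associates with fibrillin-1 (chr14:74964886-75079034, minus strand). Normalized counts were 189 and 180 in control, 515 and 521 in shControl, 428 and 273 in shMETTL3 and 95.9 and 182 in shMETTL14. The shControl libraries stood above all others, and the shMETTL14 values ran from below to within the control range. The rise measured 1.49 ± 0.20 on the log2 scale (edgeR adjusted p = 1.05e-06), and the fall with shMETTL14 -1.90 ± 0.20 (edgeR adjusted p = 9.94e-08). The fall with shMETTL3 was smaller, -0.57 ± 0.19 (edgeR adjusted p = 0.0285), and was not called by DESeq2, with library totals as the scale, or without any of shControl replicate 1, shControl replicate 2 and shMETTL3 replicate 2.

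The fibrillins, which form the microfibril backbone, differed from each other. FBN2 had 869 and 877 normalized counts in control, 361 and 415 in shControl, 459 and 497 in shMETTL3 and 147 and 217 in shMETTL14, a fall in senescence (-1.17 ± 0.15, edgeR adjusted p = 6.81e-07) and a further one with shMETTL14 (-1.09 ± 0.16, edgeR adjusted p = 1.5e-05), with 0.30 ± 0.15 for shMETTL3, which did not pass. FBN1 stood at 1204 and 1237 in control and 1299 and 1312 in shControl (0.10 ± 0.13, not called; -0.40 and called with library totals as the scale), and fell with shMETTL14 to 775 and 889 (-0.65 ± 0.13, edgeR adjusted p = 0.000805). EFEMP2, coding for fibulin-4, which recruits lysyl oxidase to elastin, gave 143 and 137 in control, 73.3 and 77.9 in shControl, 81.1 and 40.8 in shMETTL3 and 21.0 and 33.7 in shMETTL14. It fell in senescence (-0.88 ± 0.23, edgeR adjusted p = 0.00445) and again with shMETTL14 (-1.47 ± 0.29, edgeR adjusted p = 0.000573), and 18.7% of its span is shared with MUS81 on the other strand.

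Of the remaining microfibril genes, LTBP1 (-0.92) and EMILIN1 (-0.89), a glycoprotein at the elastin and microfibril interface, also fell with shMETTL14. EMILIN1 (-0.58), FBLN5 (-0.69), coding for an elastin-binding fibulin, and MFAP4 (-2.12) were lower in senescence, MFAP4 at 64.6 and 66.2 in control against 21.3 and 8.90 in shControl. Without shControl replicate 1 the MFAP4 value became -2.85 and the calls for FBLN5, EFEMP2 and EMILIN1 were lost, FBLN5 also without control replicate 2 and with DESeq2. LTBP3 was not called in any of the first 3 comparisons. FBLN2 had 12 and 14 raw counts in control and at most 4 elsewhere, and MFAP2 had 11 and 15 in shMETTL3 and at most 7 elsewhere. In all, 4 of the 14 fell and 0 rose with shMETTL3, and 9 fell and 0 rose with shMETTL14.

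Adhesive and matricellular glycoproteins were divided by the knockdowns. In senescence 1 of the 9 tested rose and 3 fell. With shMETTL3 5 rose and 2 fell, and with shMETTL14 0 rose and 3 fell. MATN2, which passed the filter in 1 group only, is among those that fell in senescence and with shMETTL3.

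FN1, coding for fibronectin (chr2:216225163-216300791, minus strand), had 9417 and 8826 normalized counts in control, 10910 and 10750 in shControl, 16600 and 14510 in shMETTL3 and 6513 and 8211 in shMETTL14. The shMETTL3 libraries lay above every other library and the shMETTL14 libraries below every other. Per kilobase of gene FN1 was the highest member in all 3 senescent groups, at 143 normalized counts per kilobase in shControl, and in control it was second at 121, after THBS1 at 180. Senescence itself gave 0.25 ± 0.14, which did not pass the edgeR test (adjusted p = 0.21). The log2 fold change was 0.52 ± 0.14 with shMETTL3 (edgeR adjusted p = 0.00809) and -0.56 ± 0.14 with shMETTL14 (edgeR adjusted p = 0.0055). Both of those calls were lost without either shControl library, and the second also without shMETTL14 replicate 1 and with library totals as the scale. Set directly against shMETTL3, FN1 in shMETTL14 was lower by -1.08 ± 0.14 (edgeR adjusted p = 1.45e-06).

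POSTN, coding for periostin, a matricellular protein of fibrosis and wound repair (chr13:38136719-38172981, minus strand), had the widest gap between the knockdowns. It had 305 and 316 normalized counts in control, 289 and 256 in shControl, 495 and 604 in shMETTL3 and 78.0 and 153 in shMETTL14. The shControl and control values lay between the knockdowns with no overlap on either side. Its log2 fold change was 1.01 ± 0.18 with shMETTL3 (edgeR adjusted p = 0.000109) and -1.24 ± 0.20 with shMETTL14 (edgeR adjusted p = 4.25e-05), and between the knockdowns -2.26 ± 0.19, or 4.78-fold (edgeR adjusted p = 2.32e-09).

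THBS1, coding for thrombospondin-1, which activates latent TGF-beta (chr15:39873280-39891121, plus strand), fell in senescence from 3246 and 3159 to 1626 and 1705. In shMETTL3 it stood at 1643 and 1643, and in shMETTL14 at 292 and 595. The shMETTL3 libraries sat within the shControl range, while both shMETTL14 libraries lay far under it, although they differed between themselves. Senescence gave -0.94 ± 0.18 (edgeR adjusted p = 0.000273), shMETTL3 -0.02 ± 0.18 (edgeR adjusted p = 0.954) and shMETTL14 -1.91 ± 0.20 (edgeR adjusted p = 4.15e-08). Without shMETTL14 replicate 2 the last value became -2.51. Its paralogue THBS2, at 23 to 71 raw counts, was not called in any of these comparisons, and 62.0% of its span is shared with a noncoding RNA on the other strand.

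TNC, coding for tenascin-C, a hexameric glycoprotein of injured and inflamed tissue (chr9:117781854-117880536, minus strand), was the member of this role that rose in senescence. It had 1248 and 1169 normalized counts in control, 3876 and 3593 in shControl, 2549 and 2355 in shMETTL3 and 3116 and 2862 in shMETTL14. All senescent libraries stood above control, and shControl above both knockdowns. The rise was 1.63 ± 0.14, or 3.09-fold (edgeR adjusted p = 4.06e-10), and the fall with shMETTL3 -0.61 ± 0.13 (edgeR adjusted p = 0.00134). With library totals alone as the scale the shMETTL3 value was 0.01, so that fall rests on the scaling. With shMETTL14 the value was -0.32 ± 0.13 and did not pass.

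CTHRC1, a secreted glycoprotein of activated fibroblasts, had 165 and 141 normalized counts in control, 82.8 and 85.7 in shControl, 152 and 192 in shMETTL3 and 59.0 and 76.9 in shMETTL14. It fell in senescence (-0.86 ± 0.19, edgeR adjusted p = 0.00105) and rose with shMETTL3 (1.03 ± 0.19, edgeR adjusted p = 0.00021) to values overlapping control. SPOCK1, a testican proteoglycan, had 39.0 and 49.6 in control, 56.8 and 36.7 in shControl, 82.1 and 110 in shMETTL3 and 48.0 and 47.4 in shMETTL14 (with shMETTL3 1.05 ± 0.25, edgeR adjusted p = 0.00249). That SPOCK1 call was lost with an offset for gene length, as was its call between the knockdowns, and without shControl replicate 2. SPARC, a collagen-binding calcium protein, went from 1072 and 1174 in shControl to 1679 and 1491 in shMETTL3 (0.50 ± 0.13), a call lost without either shControl library. A noncoding RNA on the other strand shares 38.9% of the span of SPARC. MATN2, a matrilin, fell from 47 and 37 raw counts in control to 10 and 15 in shControl and 3 and 6 in shMETTL3, and neither call was made by DESeq2; they were lost in 3 and 6 alternative fits.

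Promoter sequences of FN1, POSTN, LOX and THBS1 are shown because the first 3 were called higher with shMETTL3 and lower with shMETTL14, while THBS1 was called lower with shMETTL14 and not called with shMETTL3. Each run is the 100 bases just before the RefSeq transcription start on GRCh38.p14, 5′ to 3′ on the strand of the gene, with capitals for a motif found.
FN1: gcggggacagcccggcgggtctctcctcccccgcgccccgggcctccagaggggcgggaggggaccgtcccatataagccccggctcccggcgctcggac
POSTN: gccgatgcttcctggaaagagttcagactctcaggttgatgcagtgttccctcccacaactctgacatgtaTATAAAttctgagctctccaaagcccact
LOX: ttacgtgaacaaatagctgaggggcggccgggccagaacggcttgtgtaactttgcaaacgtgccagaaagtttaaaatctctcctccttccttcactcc
THBS1: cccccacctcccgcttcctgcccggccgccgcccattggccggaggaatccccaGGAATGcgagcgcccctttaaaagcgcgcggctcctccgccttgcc
They lie at chr2:215436069-215436168 (minus), chr13:37598769-37598868 (minus), chr5:122078260-122078359 (minus) and chr15:39580979-39581078 (plus). Motifs were searched on both strands over the 300 bases around the start that the RefSeq table holds in the 36 members for which a promoter was matched. The letters taken for an AP-1 site were TGANTCA, and those for a site of the TEAD family were GGAATG. A SMAD element was searched as CAGACA, and the TATA box as TATAAA, and none of these letter sets contains another. In POSTN TATAAA begins 29 bases before the start, and AP-1 letters lie outside the run shown. In THBS1 GGAATG begins 46 bases before the start. LOX holds CAGACA outside the run shown, and FN1 holds none of the 4. Of the 36, 2 (5.56%) held the AP-1 letters, 9 (25%) TEAD, 7 (19.4%) SMAD and 5 (13.9%) TATAAA, beside 7.71%, 14%, 16.9% and 11.5% of all 35116 promoters in the table. Member promoters had a median GC content of 68.7%, beside 58.7% over all. A match is a description of letters and not of a bound site.

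**Figure D2:**
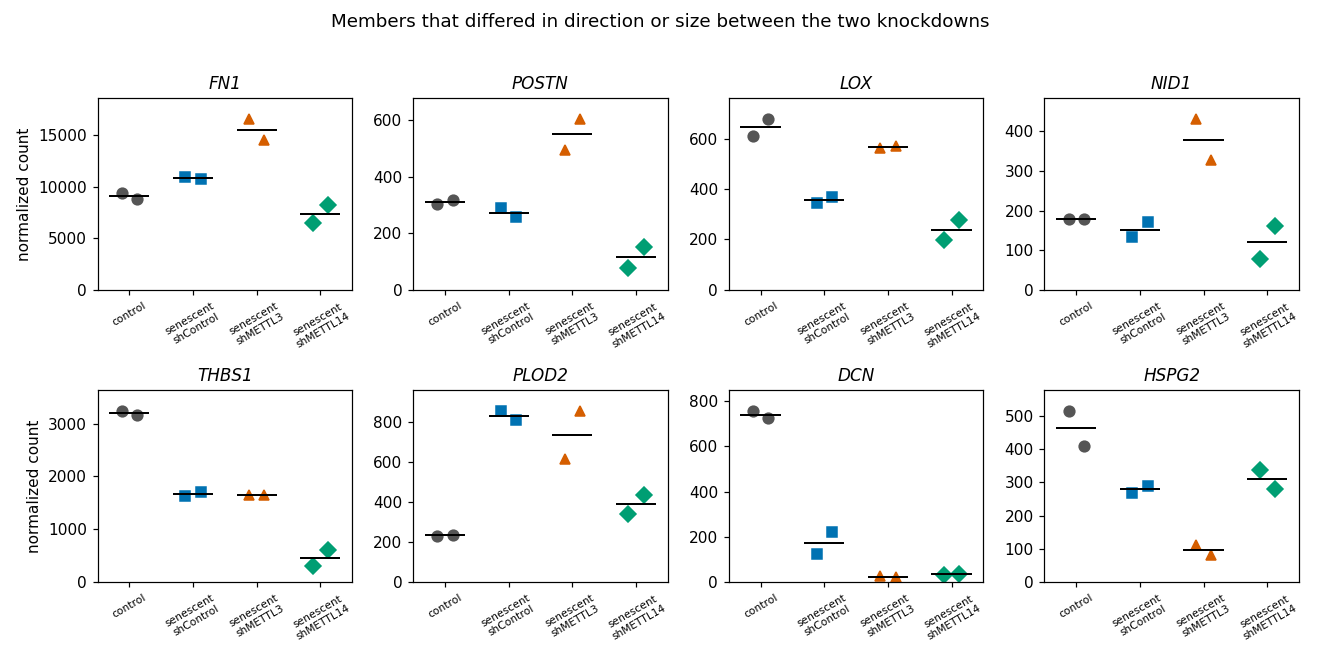
Normalized count (linear axis from 0) of 8 members in each library, with 4 groups of 2 libraries along the horizontal axis and a black bar at each mean. FN1, POSTN and LOX are higher in shMETTL3 and lower in shMETTL14 than in shControl, THBS1 and PLOD2 are lower in shMETTL14, HSPG2 is lower in shMETTL3 (111 and 81.7) than in shMETTL14 (339 and 281), and DCN is low in both knockdowns.

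Small leucine-rich proteoglycans bind collagen fibrils and set their width and spacing. In senescence 3 of the 5 tested fell and 1 rose. DCN, coding for decorin, which also binds TGF-beta (chr12:91537054-91576901, minus strand), had 757 and 724 normalized counts in control, 122 and 219 in shControl, 25.7 and 19.9 in shMETTL3 and 29.98 and 35.8 in shMETTL14. The 4 groups did not overlap one another. The fall was -2.11 ± 0.17 in senescence (edgeR adjusted p = 2.46e-10), then -2.91 ± 0.26 with shMETTL3 (4.89e-09) and -2.38 ± 0.24 with shMETTL14 (4.18e-08). Against control cells the knockdown groups were 32.5-fold and 22.5-fold lower, and the difference between them, 0.53 ± 0.34, did not pass.

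BGN, coding for biglycan, a close relative of decorin, moved the other way in senescence, from 47.8 and 43.5 in control to 75.7 and 93.5 in shControl (0.89 ± 0.25, edgeR adjusted p = 0.00833). It then stood at 53.4 and 29.4 in shMETTL3 (-1.04 ± 0.26, edgeR adjusted p = 0.00406) and 63.0 and 52.7 in shMETTL14, which did not pass. The rise was not called by DESeq2, with library totals alone, or without control replicate 2 or shControl replicate 2, and the fall was lost with library totals alone and without shControl replicate 2 or shMETTL3 replicate 2. LUM, coding for lumican, fell in senescence from 67.3 and 54.0 to 16.6 and 43.4 (-1.0 ± 0.34), or -1.85 without shControl replicate 2, and was not called by DESeq2 or without control replicate 1 or shControl replicate 1. ASPN and OGN, which lie wholly within CENPP on the other strand, had 3 to 25 and 3 to 27 raw counts. OGN was called lower in senescence and higher with shMETTL3 (1.75 ± 0.61), but the first call was lost without any 1 of the 4 libraries compared, and the second was lost in 8 of the alternative fits, DESeq2 among them, and became 0.81 without shMETTL3 replicate 2.

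In the basement membrane the nidogens and perlecan separated the knockdowns. NID1, coding for nidogen-1, which bridges laminin and collagen IV (chr1:236139132-236228481, minus strand), had 179 and 179 normalized counts in control, 132 and 171 in shControl, 432 and 327 in shMETTL3 and 78.0 and 161 in shMETTL14. Both shMETTL3 libraries stood above all others, and the shMETTL14 pair overlapped shControl. With shMETTL3 it rose by 1.31 ± 0.20 (edgeR adjusted p = 2.56e-05), and with shMETTL14 the value was -0.35 ± 0.23 and did not pass, although without shMETTL14 replicate 2 it was -0.97 and was called lower. NID2, its paralogue, had 536 and 556 in control, 398 and 450 in shControl, 414 and 333 in shMETTL3 and 198 and 221 in shMETTL14, a fall of -1.02 ± 0.15 with shMETTL14 (edgeR adjusted p = 1.15e-05).

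HSPG2, coding for perlecan, the large heparan sulfate proteoglycan of basement membranes (chr1:22148725-22263790, minus strand), had 516 and 411 in control, 270 and 289 in shControl, 111 and 81.7 in shMETTL3 and 339 and 281 in shMETTL14. The shMETTL3 libraries were the lowest of all, and shMETTL14 overlapped shControl. It fell in senescence (-0.73 ± 0.15, edgeR adjusted p = 0.000567) and with shMETTL3 (-1.54 ± 0.18, edgeR adjusted p = 3.28e-07), and with shMETTL14 the value was 0.15 ± 0.16. AGRN, coding for agrin, at 276 to 436 raw counts, passed the test in none of these comparisons. Its value with shMETTL3 was -0.42 ± 0.16 (edgeR adjusted p = 0.0522), and it was called lower with no filter on low counts and without shMETTL3 replicate 1 or either shMETTL14 library.

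Among the crosslinking enzymes, the lysyl oxidases oxidise lysines in collagen and elastin, and TGM2 joins glutamine to lysine. In senescence 4 of the 6 fell and 1 rose. LOX (chr5:121398890-121414196, minus strand) had 613 and 679 normalized counts in control, 346 and 367 in shControl, 562 and 572 in shMETTL3 and 198 and 279 in shMETTL14. The groups were ordered without overlap as control, shMETTL3, shControl and shMETTL14. LOX fell in senescence (-0.86 ± 0.15, edgeR adjusted p = 5.54e-05), rose with shMETTL3 (0.67 ± 0.15, edgeR adjusted p = 0.00148) and fell with shMETTL14 (-0.58 ± 0.16, edgeR adjusted p = 0.00787), the last call being lost without shControl replicate 2 or shMETTL14 replicate 1 and with library totals as the scale. Between the knockdowns it differed by -1.25 ± 0.15 (edgeR adjusted p = 3.94e-07).

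LOXL1, the family member tied to elastic fibres, had 187 and 161 in control, 78.0 and 74.6 in shControl, 34.9 and 12.3 in shMETTL3 and 92.0 and 71.6 in shMETTL14. It fell in senescence (-1.19 ± 0.22, edgeR adjusted p = 0.000166) and with shMETTL3 (-1.71 ± 0.30, edgeR adjusted p = 0.000128), the latter -2.63 without shMETTL3 replicate 1, and overlapped shControl in shMETTL14. LOXL2, which acts on basement membrane collagen IV, had 847 and 777 in control, 835 and 865 in shControl, 873 and 782 in shMETTL3 and 493 and 561 in shMETTL14. It did not pass in senescence or with shMETTL3 and fell with shMETTL14 (-0.69 ± 0.14, edgeR adjusted p = 0.000502). LOXL3, with 72 and 73 raw counts in control, 16 and 17 in shControl and 6 to 8 in the knockdowns, fell in senescence (-1.74), and LOXL4 also fell there (-1.60), a call lost without control replicate 1 or shControl replicate 2. The LOXL3 calls in the knockdowns were not made by DESeq2 and were lost in 7 alternative fits with shMETTL3 and 6 with shMETTL14. Antisense or neighbouring genes share 27.9% of the span of LOXL2 and 6.97% of that of LOXL1, and in LOXL3 DOK1 shares 22.9% and HTRA2 5.97%.

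TGM2 rose in senescence where LOX, LOXL1, LOXL3 and LOXL4 fell, from 137 and 157 normalized counts in control to 421 and 368 in shControl, and it stood at 667 and 487 in shMETTL3 and 304 and 338 in shMETTL14. All senescent libraries exceeded control. The rise in senescence was 1.42 ± 0.16, or 2.68-fold (edgeR adjusted p = 1.16e-07), and with shMETTL3 it gained 0.55 ± 0.15 (edgeR adjusted p = 0.00844), a call lost without shControl replicate 2 or shMETTL3 replicate 1.

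Of the 7 collagen processing genes tested, 4 rose and 3 fell in senescence. P4HA1, P4HA2, PLOD1 and PLOD2 rose. PLOD2, the lysyl hydroxylase of collagen telopeptides (chr3:145787228-145879282, minus strand), had 229 and 236 normalized counts in control, 855 and 808 in shControl, 613 and 855 in shMETTL3 and 340 and 435 in shMETTL14. Senescent shControl lay above control and shMETTL14 between the others, while shMETTL3 overlapped shControl. The rise was 1.84 ± 0.16, or 3.58-fold (edgeR adjusted p = 8.27e-10), and the fall with shMETTL14 was -1.10 ± 0.16 (edgeR adjusted p = 6.76e-06).

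PLOD1, its relative acting on helical lysines, went from 193 and 210 in control to 544 and 490 in shControl, 476 and 374 in shMETTL3 and 373 and 335 in shMETTL14. It rose in senescence by 1.36 ± 0.15 (edgeR adjusted p = 4.84e-08) and fell with shMETTL14 (-0.55 ± 0.14, edgeR adjusted p = 0.00688), the fall being lost without shControl replicate 1 or shMETTL14 replicate 2 and with library totals as the scale. P4HA2, a catalytic subunit of prolyl 4-hydroxylase, gave 124 and 127 in control, 305 and 248 in shControl, 206 and 233 in shMETTL3 and 107 and 137 in shMETTL14. Its rise was 1.14 ± 0.16 (edgeR adjusted p = 3.66e-06), and with shMETTL14 it fell by -1.18 ± 0.17 (edgeR adjusted p = 6.01e-06), to values overlapping control. P4HA1, the other main subunit, rose in senescence by 0.81 and fell with shMETTL14 by -0.39, a call lost in 10 of the alternative fits. In shMETTL14 against control, a comparison without shControl, PLOD1 (0.81), PLOD2 (0.74) and P4HA1 (0.43) were called higher. That P4HA1 call was lost in 5 of the alternative fits, and P4HA2, at -0.04, was not called.

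SERPINH1, PCOLCE and BMP1 fell in senescence. SERPINH1, coding for the collagen chaperone HSP47, fell from 482 and 434 in control to 280 and 332 in shControl (-0.58), PCOLCE, which enhances C-propeptide cleavage, from 170 and 172 to 55.6 and 107 (-1.07), and BMP1, the C-propeptide protease, from 128 and 100 to 73.3 and 79.0 (-0.58). The noncoding PCOLCE-AS1 on the other strand shares 30.1% of the span of PCOLCE. The BMP1 call was lost in 9 alternative fits, and that of SERPINH1 without control replicate 1 or shControl replicate 1. None of the 7 was called with shMETTL3, whereas with shMETTL14 P4HA1, P4HA2, PLOD1 and PLOD2 were called lower and the other 3 were not called.

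**Figure D3:**
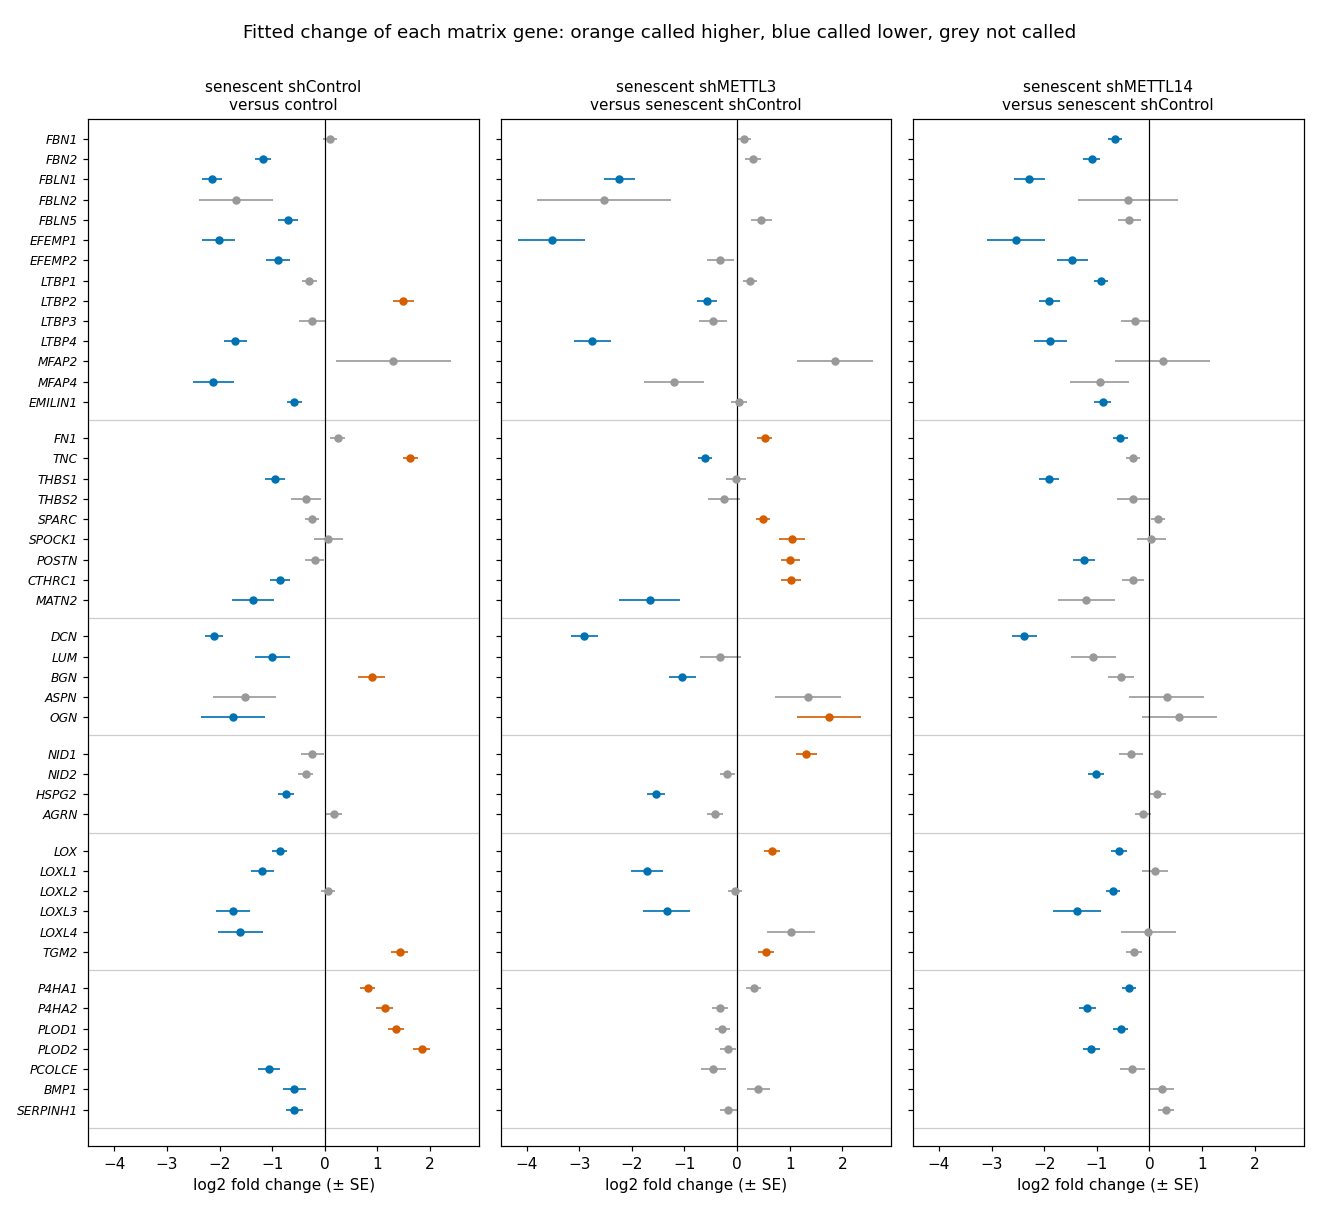
Log2 fold change with its SE (horizontal axis, log2 units) of the 45 members tested, in 3 panels for senescent shControl over control, shMETTL3 over shControl and shMETTL14 over shControl; grey lines separate the 6 roles in the order of the text, orange is called higher, blue lower and grey not called. The third panel has no orange point, and P4HA1, P4HA2, PLOD1 and PLOD2 are orange in the first panel and blue in the third.

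The direct comparison of the knockdowns placed 20 members lower and 3 higher in shMETTL14 than in shMETTL3. POSTN (-2.26), THBS1 (-1.89) and NID1 (-1.67 ± 0.21) were the furthest below, and THBS1 and NID1 became -2.49 and -2.27 without shMETTL14 replicate 2. Next came FBN2 (-1.40), CTHRC1 (-1.34), LTBP2 (-1.34) and LOX (-1.25). Higher in shMETTL14 were LOXL1 (1.81 ± 0.29), HSPG2 (1.69 ± 0.17) and SERPINH1 (0.48 ± 0.16), with edgeR adjusted p of 2.42e-05, 3.21e-08 and 0.0201. Without shMETTL3 replicate 1, LOXL1 became 2.73 and 6 members were higher, and SERPINH1 was lost in 6 alternative fits. DCN, FBLN1, LTBP4 and EFEMP1, the members far below shControl in both groups, were not called between them, with 0.53 ± 0.34, -0.04 ± 0.39, 0.87 ± 0.45 and 0.997 ± 0.90.

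**Figure D4:**
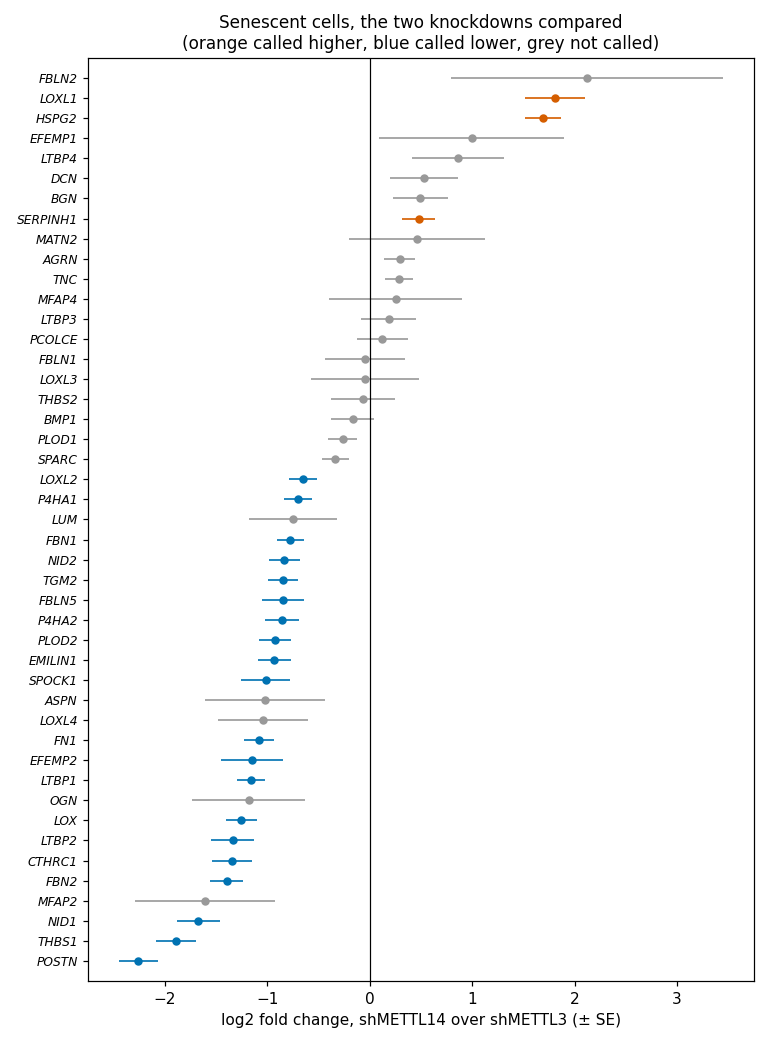
Log2 fold change of shMETTL14 over shMETTL3 with its SE (horizontal axis, log2 units) for the 45 members tested, ordered by value, with orange called higher, blue lower and grey not called. The values run from POSTN at -2.26 to FBLN2 at 2.12, the latter resting on at most 3 raw counts per library in these groups and not called.

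Gene length moved with the knockdown values over all genes: Spearman's rho between length and log2 fold change was 0.30 with shMETTL3, -0.11 with shMETTL14 and -0.33 between the knockdowns over 12844 genes, and -0.07, -0.16 and 0.04 over the 45 members, across genes that share libraries. In senescence rho was -0.11 over all genes and 0.25 over the members. The median length was 65313 bases for members called higher in senescence and 21582 for those called lower. With an offset for length, members called higher and lower were 9 and 10 with shMETTL3, 0 and 21 with shMETTL14, and 3 and 23 between the knockdowns. In senescence the offset ended the BMP1 call and no other, and added none. The shares of all genes called with the offset are not given, so these counts cannot be set beside them. Leaving out the 9 members that share 5% or more of their span with another gene gave 7 and 9, 0 and 18, and 2 and 18. In 52 nested pairs of genes on opposite strands the outer gene never had fewer counts than the inner in any library, as counts that do not separate strands would give, although the library kit was directional and the file header names a strand setting. Which setting made the counts is not known, and reads of a member and its antisense partner are treated here as not separable.

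Other matrix genes, 74 symbols of related glycoproteins, proteoglycans and collagen-processing proteins of which 35 were tested, gave 14 higher and 5 lower in senescence, 8 and 5 with shMETTL3 and 1 and 14 with shMETTL14. Of all genes, 13.3% and 13.3%, 12.2% and 11.2%, and 9.15% and 12% were called higher and lower in these comparisons. In senescence the median log2 fold change over the 35 was 0.19, opposite in sign to the -0.58 over the 45 members. The medians over the 35 were -0.08 with shMETTL3 and -0.575 with shMETTL14, beside -0.18 and -0.55 over the members. SMOC1, a calcium-binding basement membrane protein, rose in senescence (3.63 ± 0.26), as did SRPX (1.39 ± 0.17), and P3H2, a prolyl 3-hydroxylase (-1.51 ± 0.18), and SVEP1 (-1.31 ± 0.14) fell. With shMETTL3 PAPLN (1.36 ± 0.21) and HMCN1, coding for hemicentin-1 (1.23 ± 0.23), rose, and MXRA5 (-1.22 ± 0.21) and PLOD3 (-0.79 ± 0.19) fell. With shMETTL14 MXRA5 (-2.75 ± 0.25) and VCAN, coding for the large proteoglycan versican (-1.17 ± 0.18), fell, and COLGALT1, a collagen galactosyltransferase (0.70 ± 0.16), was the 1 gene higher.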

How the data were processed

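FastGRO-seq was carried out on 8 libraries of IMR90 cells. The authors aligned reads to hg19 (STAR and deepTools 3.3 are listed in the submitters' processing notes) and, per the file headers, deposited raw counts per gene made with HOMER over whole gene spans, with no normalization. No pooling of libraries was found, and no deposited column was left unused. The members, their roles and the other lists were chosen with earlier results of these data known.

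From the counts, edgeR 4.0.16 (R 4.3.3) was used: low genes were dropped with filterByExpr (minimum count 10), libraries were scaled by TMM, and the quasi-likelihood model was fitted to all 8 libraries, with a group term and no covariates. P-values were adjusted by Benjamini-Hochberg over the 12844 genes tested, with a threshold of 0.05. SE is the absolute log2 fold change divided by the square root of F. The common biological coefficient of variation was 10.6%. The study describes its fastGRO-seq replicates as biologically independent; the labels do not say which cultures they came from, and p-values measure the spread between these libraries. Same-numbered libraries were checked for pairing: correlations of their deviations from group means ran from -0.039 to 0.101, so the numbers were not taken as pairs. Scripts were tested on simulated data.

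Every member was named. For each role and each of the first 3 comparisons, the 3 called members with the largest change and a mean normalized count of at least 50 were given in every library, and other matrix genes by the 2 largest rises and falls under the same minimum. Intervals of count ratios are exact at 95% and cover counting error only. Alternatives were DESeq2 1.42.0, library totals, no ribosomal RNA rows, no filter, the 2 groups compared alone, a replicate block and each library left out. An offset for gene length, and counts without overlapping members or members past the filter in 1 group, were added after seeing the data. Promoters came from RefSeq (GRCh38.p14).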

Additional observations from a re-analysis of the deposited data

Results flagged for a closer look

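FN1, LOX and POSTN were called higher with shMETTL3 and lower with shMETTL14, each against the same shControl libraries. The difference between the knockdowns then follows from how the genes were picked and is no further support: the direct comparison gave log2 fold changes of -1.08 for FN1, -1.25 for LOX and -2.26 for POSTN. In each gene both shMETTL3 libraries lay above both shControl libraries and both shMETTL14 libraries below them. With library totals as the scale, FN1 and LOX were no longer called lower with shMETTL14, and FN1 lost both calls without either shControl library. The shControl libraries were shared, so the opposite directions are not independent of each other.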

How the results depend on the processing

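Of the members called, the call and direction held under every alternative that was run for 19 of 30 in senescence, 10 of 20 with shMETTL3, 14 of 21 with shMETTL14, 20 of 23 between the knockdowns, 28 of 31 for shMETTL3 against control and 26 of 31 for shMETTL14 against control. With scaling by library totals alone, which moves all genes of a comparison together, 23 members were higher and 6 lower with shMETTL3 and 3 were higher with shMETTL14. Among values called with either scaling, those that changed sign were FBN1 (-0.40) and LOXL2 (-0.43) in senescence, and LTBP2 (0.033), TNC (0.008), THBS1 (0.60), NID2 (0.42), LOXL2 (0.57) and PLOD2 (0.45) with shMETTL3. The cause was not tested.

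Leaving out each library in turn gave 14 to 24 members lower in senescence (14 without shControl replicate 1). With shMETTL3 it gave 4 to 10 higher and 7 to 16 lower (4 and 7 without shControl replicate 2), and between the knockdowns 2 to 6 higher (6 without shMETTL3 replicate 1). A fit with the replicate number as a block gave 8 higher and 22 lower in senescence, 9 and 12 with shMETTL3, 0 and 21 with shMETTL14, and 3 and 21 between the knockdowns, and ended no call; it added AGRN with shMETTL3 and SPARC between the knockdowns. The shares of all genes called in these fits are not given, so the counts show only how the member calls moved. No limit of detection was measured. Among the members with few counts, leaving out 1 library moved the fitted change by up to 4.99-fold for FBLN2 (shMETTL3 against shControl) and 3.78-fold for MFAP2 (shMETTL14 against shControl).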
